A study of Mus musculus with 2 samples.

Results

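The miR-29 genes of the mouse are Mir29a, Mir29b-1, Mir29b-2 and Mir29c. They were picked by gene name from the 1973 miRNA gene rows of the count tables, and all 4 were present. Small RNA (microRNA-seq) had been sequenced from the neural tube, the embryonic tissue that forms brain and spinal cord, at embryonic day 13.5. Both libraries came from B6NCrl embryos, with tissue of males and females pooled. No allele, drug or second stage was named in the labels, which number the samples as biological replicates 1 and 2 of 1 condition. The tissue was sequenced whole, without cell sorting, so fewer cells of a type and less miRNA per cell cannot be told apart.

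MicroRNAs are short RNAs cut from a hairpin in a longer primary transcript, and they repress mRNAs that pair with their seed, the bases near the 5′ end. The miR-29 family is known for sparse expression in the embryonic brain and a steep rise as neurons mature after birth. Its known targets include collagens, the DNA methyltransferases Dnmt3a and Dnmt3b, and pro-apoptotic BH3-only genes, which are restrained in mature neurons. In these libraries, with a single stage, the rise itself could not be examined, and the data give the embryonic level only.

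The 3 mature products named for the family, all cut from the 3′ arm (3p) of the hairpin, are shown because their likeness decides which reads could be told apart. Sequences are from RefSeq on GRCm38.p6, in which all 4 genes were found, and capitals mark the seed (bases 2 to 8).
miR-29a-3p (Mir29a): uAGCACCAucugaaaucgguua
miR-29b-3p (Mir29b-1 and Mir29b-2): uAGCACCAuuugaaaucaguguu
miR-29c-3p (Mir29c): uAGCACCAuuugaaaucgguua
The seed was the same in all 3, and no other mature miRNA of the RefSeq table carried it. Counted from 1 at the 5′ end, miR-29a-3p and miR-29c-3p differed by 1 substitution in 22 positions, C10U, written with the miR-29a base first. Over the first 22 positions, miR-29b-3p differed from miR-29c-3p at 3 positions (A18G, G21U and U22A, miR-29b base first). The whole 23-nt miR-29b-3p sequence was identical in both miR-29b genes.

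The hairpins show where the miR-29b copies part. Capitals mark the 3p product within each.
Mir29b-1 hairpin: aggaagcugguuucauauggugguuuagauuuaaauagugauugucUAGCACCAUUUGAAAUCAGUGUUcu
Mir29b-2 hairpin: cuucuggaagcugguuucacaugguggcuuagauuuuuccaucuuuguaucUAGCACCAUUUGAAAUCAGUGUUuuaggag
Mir29a hairpin: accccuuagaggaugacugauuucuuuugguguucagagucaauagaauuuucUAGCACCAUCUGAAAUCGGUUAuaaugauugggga
Mir29c hairpin: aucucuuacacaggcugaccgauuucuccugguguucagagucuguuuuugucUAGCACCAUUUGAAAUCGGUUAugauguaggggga
The Mir29b-1 and Mir29b-2 hairpins shared a stretch of 25 nt, which is the 3p product with 2 bases before it and none after it. Every window of 22 nt within miR-29b-3p (2 of 2) also lay in the other copy, while the 1 window of 22 nt in miR-29a-3p and the 1 in miR-29c-3p lay in no other of the 2202 miRNA hairpins searched. The 5′ arms of both miR-29b hairpins were distinct: 1 of 1 window of 22 nt in miR-29b-1-5p and 4 of 4 in miR-29b-2-5p lay in no other hairpin. The count tables merge both arms of a gene, so the share of each arm was not measured.

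The family lies in 2 clusters of 2 genes. On chromosome 6, Mir29b-1 (chr6:31063023-31063093, minus strand, GRCm38) stands 275 nt upstream of Mir29a (chr6:31062660-31062747). Mir29a lies outside the annotated genes of GENCODE M21, and Mir29b-1 overlaps the single exon of the long non-coding RNA gene Gm27019 by 2 nt. On chromosome 1, Mir29b-2 (chr1:195037040-195037120, plus strand) stands 426 nt upstream of Mir29c (chr1:195037547-195037634). Both lie in exon 3 of the non-coding transcript A330023F24Rik, and opposite to an exon of Cd46, a complement regulator encoded on the minus strand. No opposite-strand count fell on any of the 4 genes in either library. In each cluster, then, a miR-29b gene comes first in the direction of transcription and the miR-29a or miR-29c gene second.

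**Figure D1:**
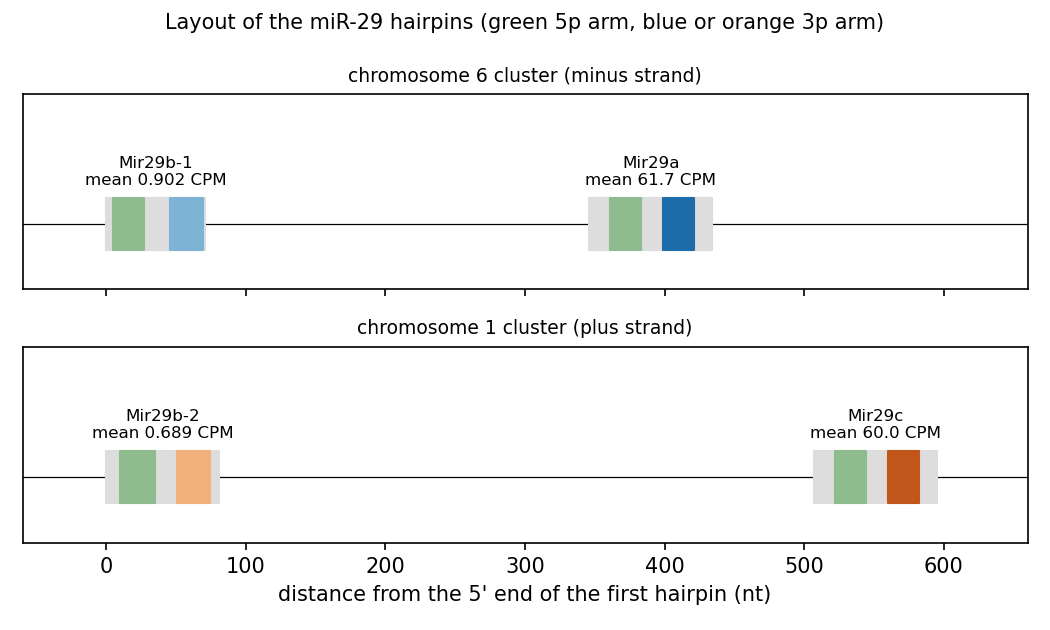
Map of the chromosome 6 cluster (top) and the chromosome 1 cluster (bottom), with distance in nt from the 5′ end of the first hairpin on the horizontal axis; grey boxes are hairpins and coloured parts their 5p and 3p arms. The second hairpin of each cluster stands at a mean of 61.7 CPM (Mir29a) or 60.0 CPM (Mir29c) and the first at 0.902 CPM (Mir29b-1) or 0.689 CPM (Mir29b-2).

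The libraries held 7019469 (replicate 1) and 5738209 (replicate 2) same-strand counts on miRNA genes. Levels are given as CPM, the same-strand count of a gene per 1000000 such counts of its library. A mature miRNA is read whole, so reads do not grow in number with the length of a gene, and no length scaling was applied. Efficiency of ligation differs between miRNAs, which limits any comparison of levels between genes. Multimapping reads, 28.5% and 31.0% of all reads, were inferred to enter no gene's count. Intervals below are exact 95% Poisson or binomial intervals. They cover counting error only, as PCR copies could not be told from independent molecules.

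Mir29a and Mir29c were detected at low and nearly equal levels, and both miR-29b genes were close to the lower limit of the counts. Mir29a had 386 counts in replicate 1 and 393 in replicate 2, or 55.0 CPM (95% interval 49.6 to 60.8) and 68.5 CPM (61.9 to 75.6). Mir29c had 380 and 378 counts, or 54.1 CPM (48.8 to 59.9) and 65.9 CPM (59.4 to 72.9). The ranges of these 2 genes overlapped, and both were higher in replicate 2. Mir29b-1 had 9 and 3 counts, or 1.28 CPM (0.586 to 2.43) and 0.523 CPM (0.108 to 1.53). Mir29b-2 had 6 and 3 counts, or 0.855 CPM (0.314 to 1.86) and 0.523 CPM (0.108 to 1.53). Their ranges overlapped as well, and neither miR-29b gene came near the range of Mir29a or Mir29c in either library. The limit that a count of 0 allows, 3 counts, equals 0.427 CPM in replicate 1 and 0.523 CPM in replicate 2, so both miR-29b genes stood at that limit in replicate 2.

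**Figure D2:**
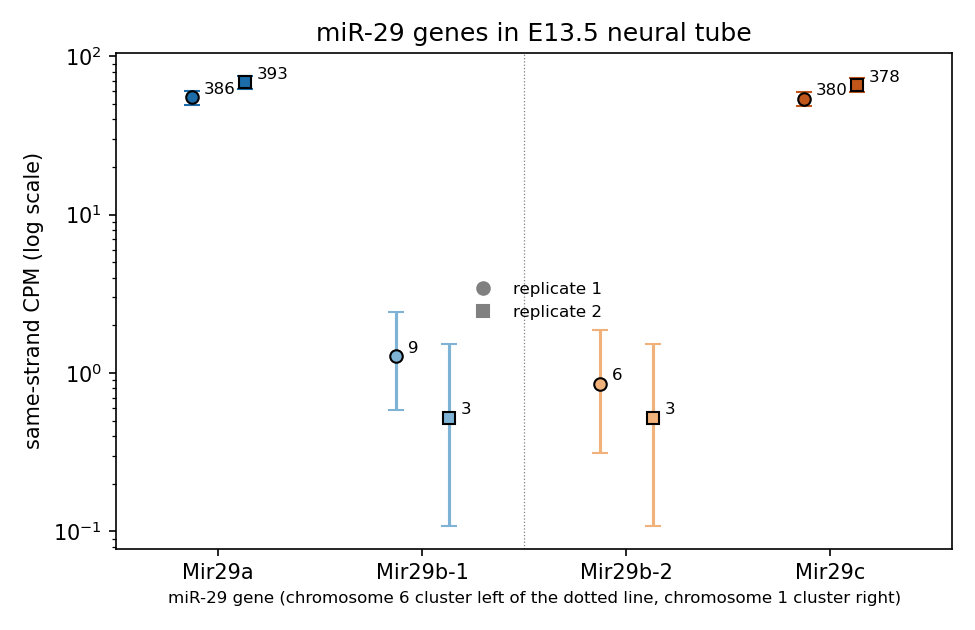
Same-strand CPM (log scale) of the miR-29 genes, circles for replicate 1 and squares for replicate 2, with exact 95% Poisson intervals as bars and the raw count beside each point. Mir29a and Mir29c lie between 54.1 and 68.5 CPM, and the miR-29b genes between 0.523 and 1.28 CPM.

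In order of mean level, Mir29a stood at 61.7 ± 9.5 CPM (SD, n = 2), Mir29c at 60.0 ± 8.3, Mir29b-1 at 0.902 ± 0.54 and Mir29b-2 at 0.689 ± 0.23 CPM. Mir29a and its neighbour in the order, Mir29c, differed by less than the SD of either, and so did Mir29b-1 and Mir29b-2. The genes compared come from the same 2 libraries, so these SDs are not the spread of their difference. For Mir29c over Mir29a, the log2 ratio was -0.04 ± 0.024 (SD, n = 2). Together the 4 genes held 781 counts in replicate 1 and 777 in replicate 2, which is 0.0111% and 0.0135% of all same-strand counts. Mir29a and Mir29c supplied 98.1% and 99.2% of these, and the miR-29b genes 1.92% and 0.772%. No test was made, because with 2 replicates of 1 condition the smallest p that an exact two-sided sign-flip test allows is 0.5.

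Of the 4 members, 2 (Mir29a and Mir29c) had at least 10 counts in each library, a level that 18.8% of all gene rows reached (371 of 1973). Among these 371 genes, Mir29a ranked 213 and Mir29c 214 by mean CPM. By library, Mir29a ranked 213 in replicate 1 and 205 in replicate 2, and Mir29c 215 and 209. Of the 371 genes, 57.1% stood above Mir29a, and their median level was 95.1 CPM. The miR-29b genes, with 12 and 9 counts summed over both libraries, belong among the 296 rows that had at least 1 but no more than 12 counts.

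**Figure D3:**
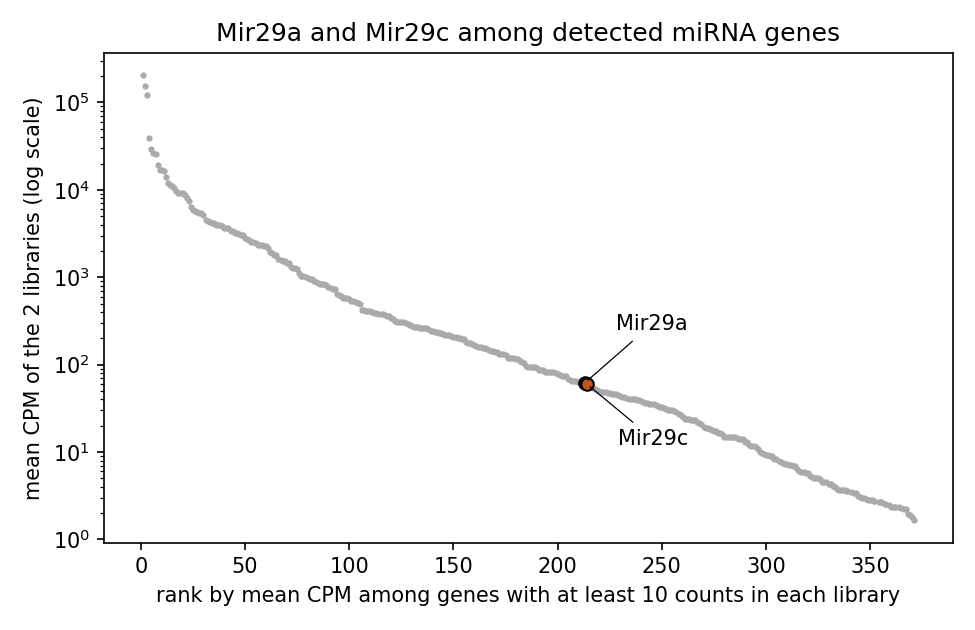
Mean CPM of the 2 libraries (log scale) against rank for the 371 genes that reached 10 counts in both libraries, with Mir29a and Mir29c marked. Both sit below the middle of the curve, at ranks 213 and 214.

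The gene counts of the 2 clusters were equal within counting error. The chromosome 6 cluster held 395 and 396 counts (56.3 and 69.0 CPM), and the chromosome 1 cluster 386 and 381 counts (55.0 and 66.4 CPM). The log2 ratio of the chromosome 6 to the chromosome 1 cluster was 0.03 in replicate 1 (95% interval -0.17 to 0.24) and 0.06 in replicate 2 (-0.15 to 0.26), a mean of 0.04 ± 0.016 (SD, n = 2). Each interval spans 0, and it leaves room for a difference of up to 0.26 log2 units. The ratio rests on the second gene of each cluster. Reads of miR-29b-3p match both clusters and were inferred to enter neither sum, so the full output of each cluster was not measured. For Mir29c over Mir29a, the log2 ratio was -0.02 in replicate 1 (-0.23 to 0.19) and -0.06 in replicate 2 (-0.26 to 0.15). Since miR-29a-3p and miR-29c-3p differ at 1 base, a read with an error at that base could be counted on the wrong gene, and how often this occurred was not measured.

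Within each cluster the levels were far apart. On chromosome 6, the log2 ratio of Mir29a to Mir29b-1 was 5.42 in replicate 1 (95% interval 4.48 to 6.56) and 7.03 in replicate 2 (5.48 to 9.32). On chromosome 1, the log2 ratio of Mir29c to Mir29b-2 was 5.98 in replicate 1 (4.85 to 7.44) and 6.98 in replicate 2 (5.42 to 9.26). All 4 intervals lie well above 0, and their width comes from the 3 to 9 counts of the miR-29b genes. Between the copies, the log2 ratio of Mir29b-1 to Mir29b-2 in replicate 1 was 0.58 (-1.07 to 2.36), and both copies had 3 counts in replicate 2, where no ratio is given. These ratios do not measure mature miR-29b, because a read of miR-29b-3p matches both copies, and reads that map to several places appear, from the layout of the tables, to be left out of the gene counts. How many of the multimapping reads were miR-29b-3p was not measured, so the miR-29b counts do not show that this miRNA was scarce.

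The same layout could be examined in other miRNA genes. Across the tables, 149 pairs of consecutive miRNA genes on 1 strand lay within 10 kb of each other, with at least 10 counts in each library for at least 1 gene of the pair. The median pair differed by a log2 ratio of 4.39, with 0.5 added to each count. On that scale Mir29c over Mir29b-2 stood at 6.31 and Mir29a over Mir29b-1 at 6.08, and 30.9% and 34.9% of the pairs were wider. The pairs nearest in ratio were Mir23a over Mir27a at 6.32 and Mir1264 over Mir1912 at 6.06. The gap within both miR-29 clusters was wider than in the median pair, and many pairs of other miRNAs were wider still. The ratio a pair can reach is limited by the count of its higher gene. In the widest pair that gene was Mir137, with 35272 and 29655 counts, against 386 and 393 for Mir29a.

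Both miR-29 clusters pair a gene whose mature sequence occurs at another locus (miR-29b) with a gene whose products do not (miR-29a or miR-29c). Of the other 147 pairs, 19 had this makeup, and in 17 (89.5%) the gene with the shared sequence was the lower. The log2 ratio in these 17 pairs ranged widely, with a median of 5.68. Among pairs picked after their values were seen, Mir431 over Mir3070b was the widest at 13.00, Mir20a over Mir19b-1 stood at 10.07, and Mir15a over Mir16-1 was the narrowest at 0.35. Of the remaining pairs, 68 had no shared sequence in either gene, with a median of 2.92, and 6 had it in both, with a median of 5.61. For 54 pairs the RefSeq table lacked an arm, and their median was 6.24. Those 54 pairs could not be classed, and in the 6 pairs the lower gene had a shared sequence too. In the 2 pairs where only the higher gene had it, the median was 2.84. Some pairs with no shared sequence in either gene were wide as well, such as Mir434 over Mir432 at 14.18. The part of shared sequence in these gaps was not tested. Over all genes with both arms in the RefSeq table, 43 of 95 with a shared mature sequence reached 10 counts in each library (45.3%). Without one, 257 of 749 did (34.3%).

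**Figure D4:**
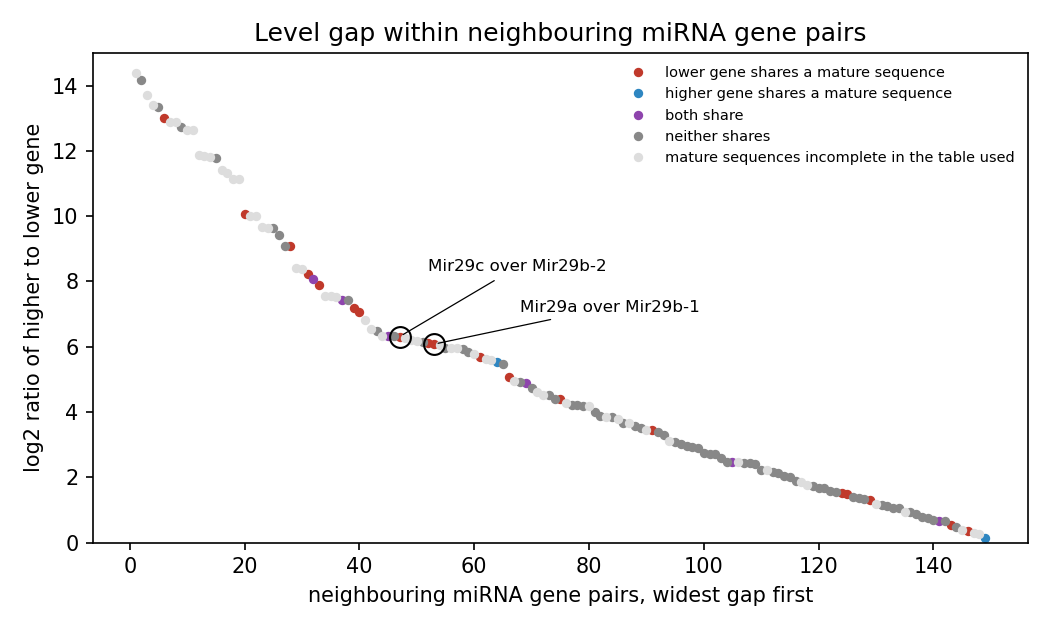
Log2 ratio of the higher to the lower gene in 149 neighbouring miRNA gene pairs, sorted from the widest, and coloured by which gene has a mature sequence found at another locus. The miR-29 pairs, circled, stand 47th (Mir29c over Mir29b-2, 6.31) and 53rd (Mir29a over Mir29b-1, 6.08).

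Set beside other miRNAs, the counts on the miR-29 genes formed a small part of the pool. Reads of miR-29b-3p were inferred to be missing from these counts, so the family sums below are lower limits. The family summed to 111 CPM in replicate 1 and 135 CPM in replicate 2, against 16555 and 15605 CPM for 18 genes of other miRNAs known from maturing neurons and glia. In that list 12 of 18 genes stood above Mir29a. They were led by Mir137, a regulator of neuronal differentiation, at 5096 ± 101 CPM, and Mir139 at 3401 ± 432 CPM (SD, n = 2). The 6 below Mir29c were the 3 Mir124a copies, Mir129-1, Mir129-2 and Mir212. Mir124a, like miR-29b, has copies with the same mature product, and its copies reached at most 3.52 ± 1.27 CPM.

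Let-7 miRNAs, which also accumulate as tissues differentiate, were already abundant at this stage. The 9 let-7 genes measured summed to 60182 and 68021 CPM, which is 541 times the miR-29 sum in replicate 1 and 502 times in replicate 2. Reads mapping to several places were inferred to be missing from both sums. All 9 stood above Mir29a, with Mirlet7g at 29455 ± 3732 and Mirlet7i at 25538 ± 1633 CPM. The 10 miRNA genes of proliferating progenitors, from the miR-17-92 cluster and its relatives, summed to 46959 and 52272 CPM, led by Mir17 at 19154 ± 661 and Mir93 at 9294 ± 850 CPM. Of those 10 genes, 8 stood above Mir29a, and the others were Mir19a and Mir19b-1. A mature sequence of Mir19b-1 also occurs at another locus, so its low count does not show that this miRNA was scarce.

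The genes nearest to Mir29a and Mir29c in level were sought among the other 370 genes that reached 10 counts in both libraries, by distance of log2 CPM over both libraries. Each was the nearest gene of the other, at a distance of 0.06 log2 units. For Mir29a, Mir216b (54.7 and 62.4 CPM) followed at 0.13 and Mir488 (60.3 and 66.6 CPM) at 0.14. For Mir29c, Mir216b followed at 0.08 and Mir345 (56.6 and 60.6 CPM) at 0.13. With 2 libraries, likeness here means a similar level and little else. The genes nearest to both miR-29b genes were Mir103-1, Mir378d and Mir3106, which lie at the 10-count limit of the search, at 1.76 to 2.18 log2 units.

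Mir29a and Mir29c were slightly higher in replicate 2, by like amounts. Scaled by edgeR's TMM factors and with 0.5 added to each count, the log2 ratio of replicate 2 to replicate 1 was 0.26 for Mir29a (95% counting interval 0.06 to 0.47) and 0.23 for Mir29c (0.02 to 0.44). Neither of the 2 passed 0.5 log2 units, which 9.48% of the 306 genes with at least 100 counts summed did (29 genes). The median over these genes was -0.02, and 30.7% of them differed by more than Mir29a and 38.9% by more than Mir29c in either direction. The shift of both genes thus lay within the usual spread between the libraries. Mir29b-1 and Mir29b-2 had too few counts for this comparison.

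**Figure D5:**
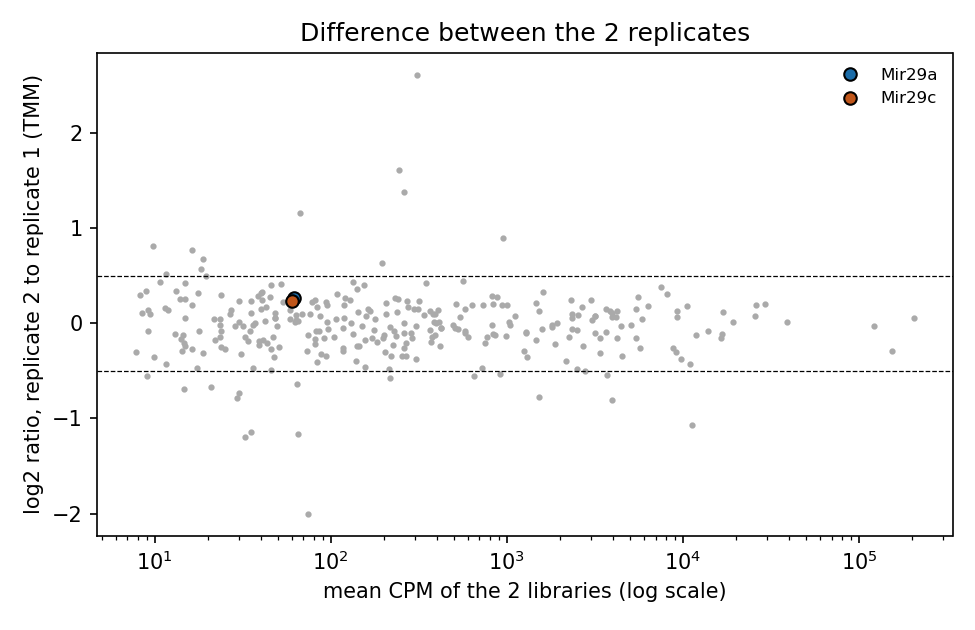
Log2 ratio of replicate 2 to replicate 1 (TMM-scaled) against mean CPM (log scale) for 306 genes with at least 100 counts summed; dashed lines mark 0.5 log2 units either way. Mir29a at 0.26 and Mir29c at 0.23 lie together inside the dashed lines.

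Of 6 neural markers measured, Mir137 (as above) and Mir9-3, at 394 ± 29.7 CPM, stood above Mir29a. The other 4 stood below Mir29c, with Mir124a-2 at 3.52, Mir124a-1 at 1.69, Mir9-2 at 0.902 and Mir124a-3 at 0.0712 CPM. Of the 6, 3 reached 10 counts in each library. The Mir124a copies have the same mature product, and so do Mir9-2 and Mir9-3. Low counts on such copies do not show that their miRNA was scarce. RNA of other cell types was present too. The endothelial marker Mir126a stood at 16576 ± 789 CPM, and 7 mesenchymal markers, led by Mir143 and Mir140, summed to 8589 CPM in replicate 1 and 10609 CPM in replicate 2, with 6 of 7 at 10 counts in each library. The miR-29 genes are also known from fibroblasts and other mesenchymal cells. After TMM scaling, the log2 ratio of replicate 2 to replicate 1 was 0.23 for the miR-29 sum and 0.25 for the mesenchymal sum, within which Mir214 stood at 0.89 and Mir145a at -0.29. For the other cell-type sums it was 1.14 (muscle), 0.45 (epithelial), -0.01 (neural), -0.15 (endothelial), -0.17 (leukocyte), -0.71 (erythroid) and -0.78 (hepatic). For the sums given earlier it was 0.12 (let-7), 0.10 (progenitors) and -0.14 (other miRNAs of maturation). The neural sum was mostly Mir137, at a mean of 5096 of 5496 CPM. Muscle markers (8 measured, 4 at 10 counts, Mir133a-1 and Mir133a-2 at 0) summed to 182 and 417 CPM, hepatic markers (3 of 4) to 227 and 137, epithelial markers (7 of 7) to 607 and 865, leukocyte markers (3 of 3 measured) to 256 and 237 and erythroid markers (3 of 3) to 76.1 and 48.3 CPM. A count of 0, as for Mir133a-1 and Mir133a-2, does not show that a miRNA was absent where copies share its mature sequence. The part of these cells in the level of miR-29 was not tested.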

How the data were processed

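MicroRNA-seq of 2 neural tube samples was used. Per the file headers, the deposited tables were made on build mm10 with annotation M4, and they hold raw read counts for each miRNA gene. Which aligner was used is not stated in the labels or headers. Each table has 3 count columns (unstranded, same strand, opposite strand) under 4 lines of reads in no gene. That multimapping reads enter no gene was inferred from this layout. Reads in no gene (2.95% and 3.10%), unmapped reads (17.4% and 12.2%) and multimapping reads were left out of all totals.

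CPM, shares and ratios were computed here from same-strand counts. Genes were named by identifier without version in GENCODE M21 on GRCm38 (1894 of 1973 matched). The miR-29b gene models carry a later version in M21 than in the tables, and coordinates are those of M21. Mature sequences came from RefSeq, and 844 gene rows had both arms, or a single product, there.

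The members and lists were chosen with earlier results of these data known. The genes named were the members, the 3 nearest genes in level, the 2 highest of each list and the nearest pair in ratio. Further pairs, and all further genes named from the lists, were chosen after their values were seen. Replicate ratios used edgeR 4.0.16 (TMM) in R 4.3.3, with DESeq2 1.42.0 size factors as an alternative; the procedure was tested on simulated data. Intervals used scipy 1.17.1 under Python 3.11.15. The alternatives tried were the unstranded column, other totals and scalings, another pseudocount, count minimum and neighbour distance, and each replicate left out.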

Additional observations from a re-analysis of the deposited data

Results flagged for a closer look

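Reads mapping to several places, which were used in no comparison above and were inferred to enter no gene's count, numbered 3921182 in replicate 1 and 3310889 in replicate 2. They stand out as a signal outside the gene counts, against 781 and 777 counts on all miR-29 genes together. The part of miR-29b-3p in them was not measured.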

How the results depend on the processing

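With the total taken without Mir10a, the most abundant gene, mean levels were 77.7 CPM for Mir29a, 75.5 for Mir29c and 155 for the family. Mir29b-1 then stood at 1.13 and Mir29b-2 at 0.864 CPM. With all reads of the library as the total, mean levels were 32.4 CPM for Mir29a, 31.5 for Mir29c and 64.8 for the family. On that total Mir29b-1 stood at 0.468 and Mir29b-2 at 0.359 CPM. All these changes follow from the size of the total. With a minimum of 10 counts in each library, 53 genes differed by more than 0.5 log2 units between replicates, in place of 29. The ratio of the clusters, those of Mir29a to Mir29b-1, Mir29c to Mir29b-2 and Mir29c to Mir29a, and the replicate differences of Mir29a and Mir29c kept their sign and their side of 0.5 under the alternatives tried. The ratio of the miR-29b copies did not: it was 0.58 in replicate 1, and in replicate 2 both copies had 3 counts. With either replicate left out, the ratio of Mir29a to Mir29b-1 was 5.42 to 7.03 and that of Mir29c to Mir29b-2 5.98 to 6.98. Counting error is largest for the miR-29b genes, with 3 to 9 counts, and reads of miR-29b-3p were inferred to be left out at any depth. No paired analysis was possible because the study has 1 group. The labels number the samples as biological replicates, with 1 shared donor entry for the strain.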
